A study of Mus musculus with 16 samples.

Results

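Transcript levels were measured in total RNA from wildtype mouse embryos of the inbred FVB/n strain at embryonic day 9.5 (E9.5), with 1 embryo on each array. The arrays whose titles name them wildtype make up 8 of the 16 arrays of the series and comprise 4 female and 4 male embryos, numbered 1 to 4 within each sex by the labels. The other 8 embryos were homozygous for MommeD1, a mutant allele of the chromatin gene Smchd1, and entered a value only where all 16 arrays are named. Per the study's methods the embryos came from matings of heterozygous parents, the yolk sac of each embryo was set aside for genotyping, and only RNA with an integrity number above 8 was used. The arrays were Illumina Mouse Ref-8 BeadChips from 2 chips, and each chip held 2 of the female and 2 of the male embryos (numbers 1 and 2 on chip 1, numbers 3 and 4 on chip 2). Litter and somite number are not given in the sources used here.

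At this stage the mouse embryo has turned, its heart beats, and nucleated primitive red cells that formed in the yolk sac circulate through the first vessels. The neural tube is closing, the tail bud is still adding somites at the posterior end of the axis, and the Hox genes are switched on in order along that axis, those at one end of each cluster early and anteriorly and those at the other end late and posteriorly. Limb buds, pharyngeal arches and the liver bud are beginning to grow out, and their patterning is carried by a small number of secreted signal families.

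Values were the deposited normalized signals on a log2 scale. On each of the 8 arrays the values ran between 5.26 and 14.97 around a median of 6.34, as quantile normalization leaves them. The 8 wildtype arrays carried probes for 16593 genes, each represented by its probe with the highest mean. A gene was called above the threshold where that probe exceeded 7, and 6381 genes (38.5%) did so on all 8 arrays, 797 on some of them and 9415 on none. Between 6753 and 6773 genes were above 7 on any single array.

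Transcripts that these embryos should lack show where that threshold lies. The 16 Y-linked probes had a median of 5.87 in the 4 females, and none exceeded 7 there, though the probe for Uty reached 6.98. Of 24 measured genes restricted to adult tissues, such as Umod of the kidney and Prm1 of the testis, none exceeded 7 on any array, and their values lay between 5.35 and 6.49. A value under 7 did not show that a transcript was absent. The probes for Eef1a1, a translation elongation factor, and Actg1, a cytoplasmic actin, which every cell uses, averaged 5.96 ± 0.10 and 5.97 ± 0.08 (SD, n = 8). Brightness depends on the probe as well as on the transcript, so the order of genes given here is an order of probe signals.

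The brightest autosomal probes belonged to genes of translation, chromatin, the cytoskeleton and primitive red cells. The 20 genes with the highest means lay between 14.6 and 14.9, and their SDs over the 8 embryos lay between 0.015 and 0.16. Of these genes 8 encode cytosolic ribosomal proteins, led by Rplp1 (14.78 ± 0.06), Rpl9 (14.78 ± 0.10) and Rps12 (14.74 ± 0.07). The others in this family were Rpl38, Rps24, Rpl41, Rpl37 and Rpl35. Other probes of the same genes could be far dimmer, with means of 6.10 for another probe of Tubb5, 6.10 for another of Rpl37 and 10.57 for another of Rpl38, and 15 of the 20 genes stayed among the brightest 20 when the probes of a gene were averaged.

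Tuba1b, an alpha-tubulin, was the brightest of all, with a lowest value of 14.84, a median of 14.93 and a highest of 14.97. Its value equalled the array maximum in 4 embryos, so differences between embryos at this end of the scale are compressed. Tubb5, a beta-tubulin, averaged 14.64 ± 0.16 and had the widest spread of the 20, with 14.90 in male 4 and 14.35 in male 1. Gapdh, a glycolytic enzyme, had the narrowest, with all 8 values between 14.56 and 14.61.

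H2ac20 (14.83 ± 0.08) and H2ac24 (14.69 ± 0.05) encode replication-dependent histone H2A. The H2A genes are near-identical copies, 7 of them stood among the brightest 200 autosomal genes, and a probe may read several of them. Ubb-ps (14.64 ± 0.08) is annotated as a ubiquitin pseudogene, so its probe may read the ubiquitin gene of the same family. Npm1 (14.72 ± 0.09) encodes a nucleolar protein of ribosome assembly, Atp5b (14.61 ± 0.04) a subunit of the mitochondrial ATP synthase, and Mif (14.61 ± 0.10) a secreted cytokine. Igf2, the imprinted fetal growth factor, was the brightest gene for a signalling protein, at 14.64 ± 0.08.

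**Figure D1:**
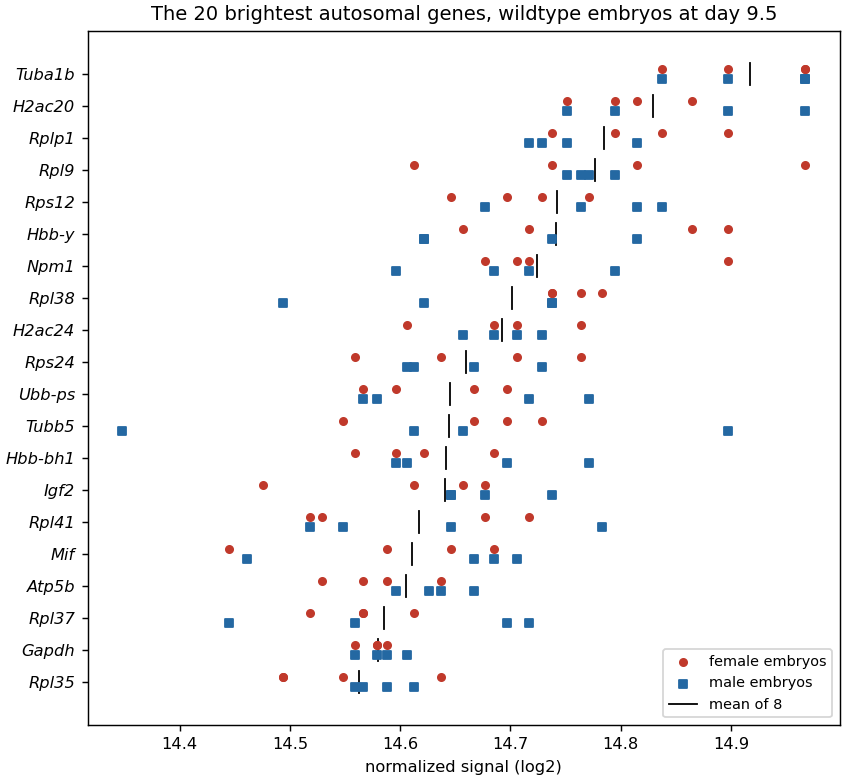
The 20 autosomal genes with the highest mean probe signal, in order from the top. The horizontal axis gives the normalized signal (log2), circles are the 4 female and squares the 4 male wildtype embryos, and the vertical bar is the mean of 8; all means lie between 14.6 and 14.9, and Tubb5 spreads most.

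Both embryonic beta-like globins that the array measured were among the 20. Hbb-y had a lowest value of 14.62, a median of 14.73 and a highest of 14.90, and Hbb-bh1 had 14.56, 14.61 and 14.77. The embryonic alpha-like globin Hba-x averaged 14.24 ± 0.21 and Hba-a1, an alpha globin that continues in the adult, 14.45 ± 0.25. Hba-a1 has a near-identical copy that its probe may also read. By contrast the probes for the adult beta globins Hbb-b2 (6.72 ± 0.10) and Hbb-bt (6.17 ± 0.13) stayed under 7 on all 8 arrays. The adult beta globins Hbb-b1 and Hbb-bs were not measured.

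The bases in front of the annotated starts of Hbb-y and Hba-x are shown because these genes carry the red cell signal. Each is the 250 bases before the start from the RefSeq annotation of GRCm38.p6, Hbb-y at chr7:103853208-103853457 on the minus strand and Hba-x at chr11:32276350-32276599 on the plus strand. Capitals mark matches on either strand to the GATA factor motifs TGATAA and its variant AGATAA, to CCACCC (a box of the kind bound by Klf1), to the promoter box CCAAT, and to the TATA box TATAAA.
Hbb-y: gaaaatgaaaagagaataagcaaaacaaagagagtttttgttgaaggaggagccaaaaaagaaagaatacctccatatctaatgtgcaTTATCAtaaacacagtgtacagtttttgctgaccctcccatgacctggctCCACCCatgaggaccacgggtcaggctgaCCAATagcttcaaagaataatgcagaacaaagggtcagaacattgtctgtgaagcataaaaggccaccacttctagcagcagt
Hba-x: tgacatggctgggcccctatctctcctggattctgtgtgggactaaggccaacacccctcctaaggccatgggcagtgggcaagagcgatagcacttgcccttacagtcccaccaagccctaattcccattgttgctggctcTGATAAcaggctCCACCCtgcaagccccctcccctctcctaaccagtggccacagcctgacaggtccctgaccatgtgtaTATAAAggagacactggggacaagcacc

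Both windows held 1 match to TGATAA and 1 to CCACCC, at 162 and 112 bases before the start in Hbb-y and at 108 and 96 bases before it in Hba-x. CCAAT was found in Hbb-y and TATAAA in Hba-x. Of all 32851 windows of this length in the annotation, the share with TGATAA was 7.94%, with AGATAA 9.99%, with CCACCC 28.1%, with CCAAT 33.8% and with TATAAA 12.4%. These matches describe letters and were not tested as binding sites.

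The lineage markers listed here were above the threshold in a larger share than all genes. The lists were chosen with earlier results of these data known, so the shares were not tested against each other. Of 277 measured genes on the 17 lists for tissues, cell types and the Hox clusters, 135 (48.7%) exceeded 7 on all 8 arrays, beside 38.5% of all genes. The lists differed widely among themselves. The shares ran from 7 of 9 for surface ectoderm and 8 of 11 for neural crest to 1 of 6 for notochord and floor plate and 2 of 15 for germ cells and pluripotency.

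**Figure D2:**
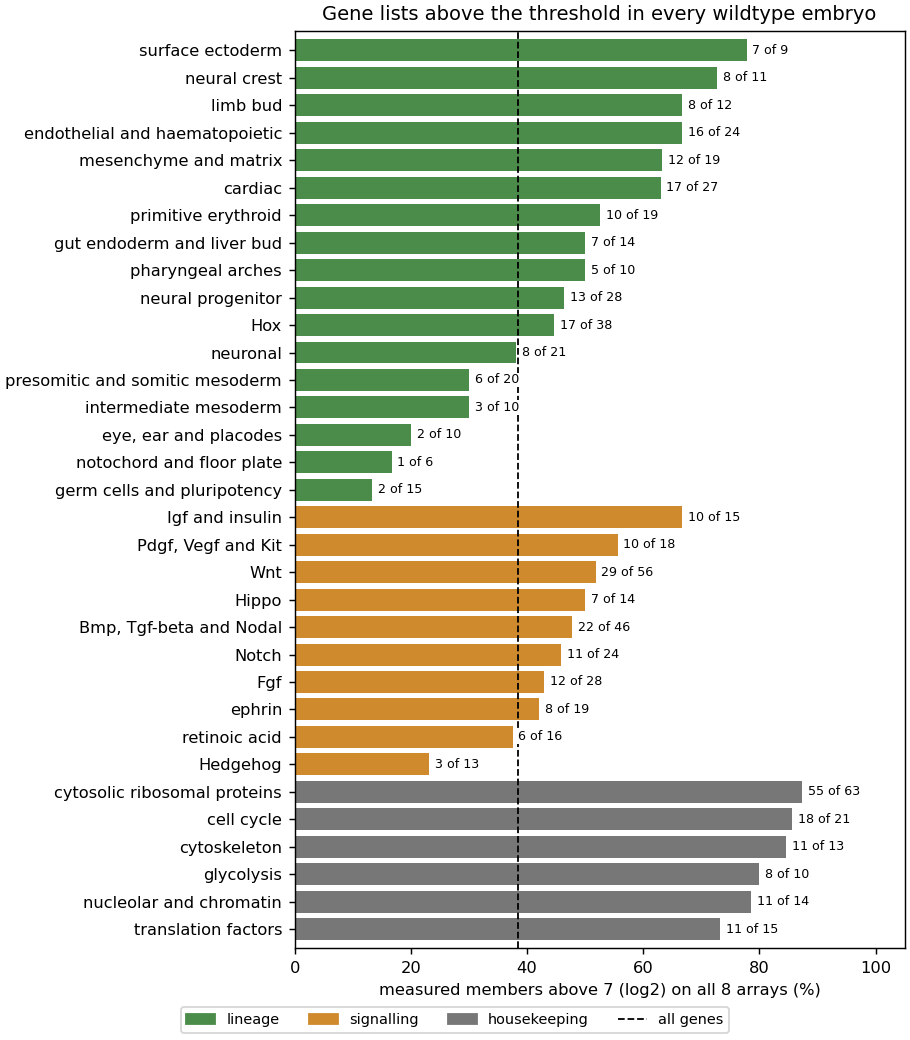
Share of the measured members of each list above 7 (log2) on all 8 wildtype arrays. Bars start at 0 and are coloured by class (lineage, signalling, housekeeping), the numbers beside them give members above 7 of members measured, and the dashed line is the 38.5% of all genes; germ cell, notochord, and eye, ear and placode genes have the smallest shares.

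The contractile apparatus of the heart was well represented. Of 12 measured sarcomere genes 10 were above 7 on all 8 arrays, led by the myosin light chains Myl4 (12.76 ± 0.12), Myl2 (11.70 ± 0.17) and Myl3 (11.50 ± 0.16) and the cardiac actin Actc1 (11.39 ± 0.13). The natriuretic peptide Nppa, a product of early atrial muscle, averaged 10.21 ± 0.28. Of 10 measured regulators 4 passed (40.0%), near the 38.5% of all genes. They were Gata6, Isl1, Mef2c and Nkx2-5, and Nkx2-5 passed narrowly (7.19 ± 0.10). The probes for Gata4 (6.47 ± 0.12), Tbx5 (6.17 ± 0.17), Tbx20 (6.46 ± 0.17) and Hand2 (6.43 ± 0.19), which also pattern the early heart, were under 7 on every array.

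In the red cell list, 10 of 19 measured genes passed. Besides the globins these included Slc4a1, the anion exchanger of the red cell membrane (11.68 ± 0.33), Tfrc, the transferrin receptor (11.11 ± 0.15), Alas2, the first enzyme of haem synthesis (9.46 ± 0.31), and the regulator Klf1 (9.0 ± 0.28). The probe for Gata1, another red cell regulator, averaged 6.22 ± 0.13. Among endothelial and haematopoietic genes 16 of 24 passed, the brightest being Egfl7 (11.45 ± 0.09), Esam (10.13 ± 0.06), Emcn (9.97 ± 0.06) and Lmo2 (9.97 ± 0.16). Pecam1 passed at 7.51 ± 0.14, while the probe for the Vegf receptor Kdr read 5.98 ± 0.15.

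Neural tube genes passed in 13 of 28 cases. The brightest were Gbx2 (10.48 ± 0.21) and Irx3 (10.35 ± 0.16), Otx2 (9.94 ± 0.13), which marks the forebrain and midbrain, and Lin28a (9.64 ± 0.18), an RNA-binding protein of immature cells. Sox2 averaged 8.48 ± 0.10, and the probes for Sox1 (6.13 ± 0.12) and Pax6 (5.76 ± 0.10) were under 7. Of 21 measured genes of differentiating neurons 8 passed (38.1%), near the 38.5% of all genes. Isl1 (9.90 ± 0.16), Gap43 (8.60 ± 0.13) and Map2 (8.41 ± 0.17) were the brightest of these. Neural crest regulators and receptors that passed included Ednrb (10.35 ± 0.08), Msx1 (10.21 ± 0.09), Ets1 (10.03 ± 0.06) and Twist1 (9.88 ± 0.11), and the probe for Foxd3 read 5.94 ± 0.14.

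Somite genes passed in 6 of 8 cases, with Meox1 (10.25 ± 0.22) and Foxc1 (8.64 ± 0.13) the brightest. None of the 7 measured tail bud and presomitic genes was above 7 on every array, but 4 of them, Tbx6, Cdx1, Cdx2 and Cdx4, were above it in some embryos. None of the 5 measured dermomyotome and myotome genes passed on any array, Myf5 reading 5.68 ± 0.10. In the limb bud list 8 of 12 genes passed. All 4 signals did, Shh at 9.23 ± 0.07, Fgf10 at 8.37 ± 0.14, Fgf8 at 8.27 ± 0.13 and Wnt7a at 7.90 ± 0.22. The homeobox genes Meis2 (11.97 ± 0.10) and Meis1 (11.53 ± 0.07) were brighter. Of 8 measured limb bud regulators 4 passed, and the probes for Lmx1b, Tbx5, Pitx1 and Tbx4 were under 7 on every array.

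Foregut and liver bud genes passed in 7 of 14 cases, led by the tight junction gene Cldn6 (10.67 ± 0.13). The liver bud regulator Hhex passed at 7.94 ± 0.10, whereas Alb, the albumin of mature liver, read 5.67 ± 0.08. Surface ectoderm keratins Krt8 (11.03 ± 0.23) and Krt18 (9.36 ± 0.11) passed, as did Trp63 (8.38 ± 0.14), a regulator of stratifying epithelium. Mesenchyme and matrix genes passed in 12 of 19 cases, the brightest being Vim (11.11 ± 0.11), Col4a1 (10.82 ± 0.06), Col5a1 (10.59 ± 0.19) and Sparc (10.56 ± 0.13). In the intermediate mesoderm list 3 of 10 passed (Wt1, Sall1 and Gata3), and the kidney regulator Pax2 read 5.93 ± 0.09.

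Markers of cells outside the embryo proper were also read. None of 9 measured genes of the maternal decidua and leukocytes and none of 8 macrophage genes exceeded 7 on any array. Of 21 measured genes of the yolk sac endoderm 5 passed on all 8 arrays and 8 more in some embryos, and Afp, Apoa1, Apoa2, Trf and Amn were among these 8. Of 8 measured trophoblast genes Phlda2 (8.94 ± 0.45) and Plac1 (7.52 ± 0.16) passed.

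The signalling lists held 249 measured genes, and 118 of them (47.4%) were above 7 on all 8 arrays, beside 38.5% of all genes. Ligands passed in 32 of 77 cases (41.6%), receptors in 31 of 66 (47.0%), inhibitors in 22 of 49 (44.9%), and effectors and targets in 32 of 53 (60.4%). In the Igf and insulin list 10 of 15 genes passed, led by Igf2, by the imprinted adaptor Grb10 (13.30 ± 0.04), which dampens insulin and Igf signalling, and by the binding proteins Igfbp5 (12.15 ± 0.05) and Igfbp4 (12.06 ± 0.08). The receptors Igf1r (7.62 ± 0.08) and Igf2r (9.69 ± 0.08) passed, the ligand Igf1 was above 7 in 4 of the 8 embryos, and the probe for Insr, the insulin receptor, read 5.83 ± 0.12.

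In the Wnt list 29 of 56 genes passed, 10 of the 21 ligands among them. Wnt5a (9.31 ± 0.18), Wnt3a (9.11 ± 0.18) and Wnt6 (8.98 ± 0.11) were the brightest ligands, and Fzd10 (10.36 ± 0.08), Fzd7 (10.29 ± 0.11) and the co-receptor kinase Ryk (11.44 ± 0.06) the brightest receptors. Ctnnb1, the beta-catenin through which the canonical signal passes, averaged 12.68 ± 0.15. The target Sp5 (9.71 ± 0.23) and the feedback inhibitor Axin2 (9.51 ± 0.11) passed, and Lef1, a nuclear partner of beta-catenin, was above 7 in 5 of the 8 embryos.

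Fgf genes passed in 12 of 28 cases (42.9%, beside 38.5% of all genes). The feedback phosphatase Dusp6 (11.83 ± 0.07) and the membrane protein Flrt3 (11.34 ± 0.07) were the brightest. Of 12 ligands 4 passed (Fgf8, Fgf10, Fgf15 and Fgf17). Among the receptors Fgfr2 (7.49 ± 0.09) passed, and the probe for Fgfr1 read 6.58 ± 0.11. In the Bmp, Tgf-beta and Nodal list 22 of 46 passed, among them 7 of 11 receptors, 8 of 10 effectors and targets, and 3 of 14 ligands. The brightest were Smad4, the shared effector (12.38 ± 0.07), and the receptors Acvr2b (12.13 ± 0.06) and Tgfbr1 (12.04 ± 0.11), and the ligands that passed were Bmp4 (9.77 ± 0.06), Bmp7 (7.88 ± 0.12) and Tgfb2.

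Hedgehog genes were the least represented signalling list, with 3 of 13 above 7. These were the ligand Shh, the signal transducer Smo (9.93 ± 0.08) and Disp1 (8.58 ± 0.09), which releases the ligand from producing cells, and the probes for the receptor Ptch1 (6.69 ± 0.11) and the transcription factors Gli1 (5.78 ± 0.06) and Gli3 (6.51 ± 0.11) were under 7. Notch genes passed in 11 of 24 cases, led by the targets Hey1 (10.40 ± 0.08) and Nrarp (10.37 ± 0.13), with Dll1 (7.99 ± 0.16) the only ligand of 5 to pass. In the retinoic acid list 6 of 16 passed (37.5%), near the 38.5% of all genes. The binding proteins Crabp1 (11.42 ± 0.13) and Crabp2 (11.21 ± 0.07) were the brightest, and Aldh1a2, which makes retinoic acid in the trunk, averaged 7.45 ± 0.23.

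Pdgf, Vegf and Kit genes passed in 10 of 18 cases, led by Pdgfa (10.80 ± 0.09) and Vegfb (10.54 ± 0.14). Ephrins and their receptors passed in 8 of 19 cases, led by Efna5 (11.32 ± 0.09), and Hippo genes in 7 of 14, led by the transcription factor Tead2 (12.12 ± 0.04). Of 21 measured cell cycle genes 18 passed, with Mcm4, a subunit of the replicative helicase, at 13.31 ± 0.05 and cyclin gene Ccnd1 at 12.31 ± 0.07. Smchd1 itself was above 7 in every embryo, between 9.72 and 9.98.

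The 8 embryos were alike for most genes. Among the 6802 genes above 7 on at least 4 arrays the median SD was 0.097 and the 95th percentile 0.18, and 92.3% had a range under 0.5 between the lowest and the highest embryo. A range of at least 1, which is a 2-fold difference, was seen for 31 genes (0.456%), 27 of them autosomal. Few genes set an embryo apart by over 0.5 from the median of the 8. Their number was 38 in male 1 and 35 in male 4, and it lay between 12 and 20 in the other 6 embryos.

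The 20 autosomal genes with the largest SD fell into 3 patterns, which were grouped after their values had been seen. Plasma protein and uptake genes made up 11, posterior axis genes 5, and the other 4 were Exosc2, Nppb, Sst and Pf4. Male 3 was the highest embryo in 11 of the 20 and male 4 the lowest in 9. Over all 6802 genes the share in which an embryo was highest lay between 9.31% and 15.7%, and the share in which it was lowest between 9.66% and 16.7%. The number of cells of a type and the RNA per cell cannot be told apart in values from whole embryos.

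**Figure D3:**
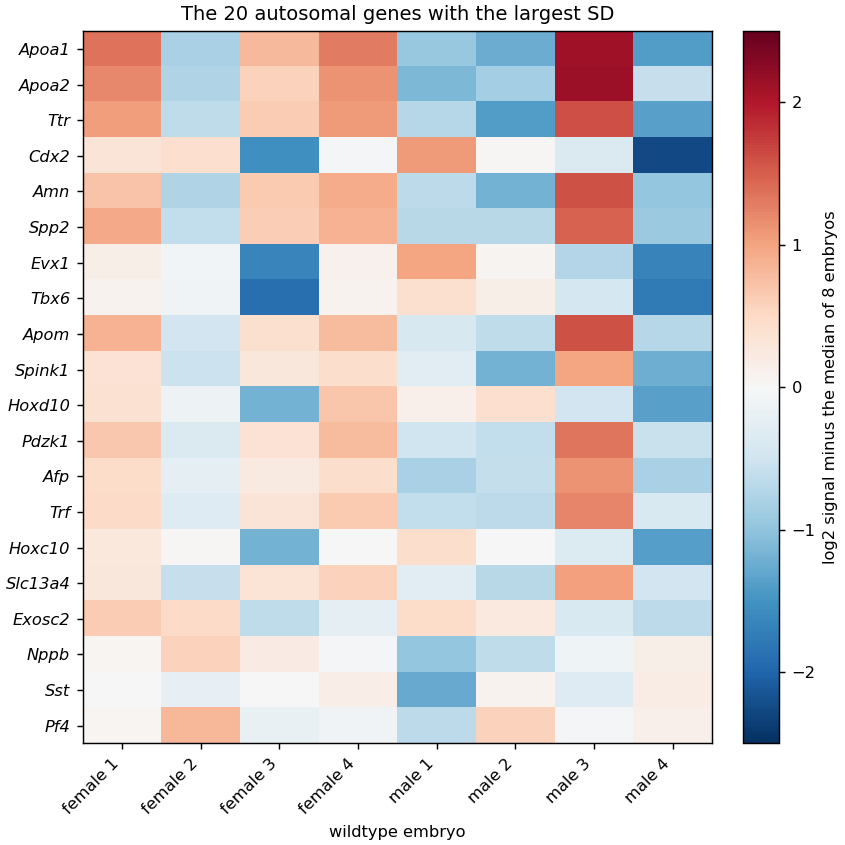
The 20 autosomal genes with the largest SD over the 8 wildtype embryos, largest at the top. Colour gives each embryo's log2 signal minus the median of the 8, red above and blue below, with the 4 females left of the 4 males; male 3 is red in the 11 plasma protein and uptake genes, and female 3 and male 4 are blue in the 5 posterior axis genes.

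The first pattern comprised Apoa1, Apoa2, Ttr, Amn, Spp2, Apom, Spink1, Pdzk1, Afp, Trf and Slc13a4, with SDs from 0.62 to 1.39. Most encode proteins that endoderm of the visceral yolk sac and later the liver secretes or takes up, such as apolipoproteins, transthyretin (Ttr), alpha-fetoprotein (Afp) and transferrin (Trf), and Amn is part of an uptake receptor. Apoa1 varied most of all autosomal genes. It read 9.25, 7.09, 8.70 and 9.19 in females 1 to 4, and 6.95, 6.66, 10.01 and 6.5 in males 1 to 4, an 11.4-fold range.

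Male 3 was the highest embryo for all 11 genes, by a median of 1.47 above the median embryo. Females 1, 3 and 4 were above the median embryo for each of the 11 genes, and female 2 and males 1, 2 and 4 below it for each. Of the 11 genes 6 were above 7 on exactly 4 arrays, those of male 3 and females 1, 3 and 4, so they entered the ranking only through the embryos in which they were high and the order of embryos over them carries no weight. Ttr, Spink1 and Slc13a4 were above 7 in every embryo, and male 3 was highest for these 3 as well. Ttr read 11.04 in male 3, had a median of 9.43, and read 8.04 in male 2, and Afp read 8.16 in male 3, had a median of 7.04, and read 6.22 in male 1. Of the 4 embryos on the high side 3 were female and 3 were on chip 2. Between the chips the 11 genes differed by 0.54 to 1.20 (chip 2 minus chip 1), and none passed in limma (adjusted p between 0.28 and 0.52). The part of the chip in this pattern was not tested further.

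The list of yolk sac endoderm genes, 11 of which were above 7 on at least 4 arrays, had male 3 highest in 10, and 3 of these genes were above 7 on exactly 4 arrays. Afp, Apoa1, Apoa2, Trf, Ttr, Amn and Spink1 of this list also belong to the first pattern, so the list is not a separate set of genes. For the 5 genes above 7 in every embryo (Apoe, Ttr, Dab2, Spink1 and Rhox5) male 3 was highest in all 5, and their SDs lay between 0.20 and 1.19. The mean over its 11 genes lay between 7.63 and 8.68 in females and between 7.38 and 9.23 in males. It included the X-linked homeobox gene Rhox5, which read 8.98 in male 3, had a median of 7.80, and read 7.35 in male 4. The probe for Alb, the liver gene, stayed between 5.50 and 5.77 in all 8 embryos. The yolk sacs had been removed for genotyping, and how much of this tissue stayed with each embryo was not tested.

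The bases before the starts of Apoa1 and Afp are shown as examples of the first pattern, Apoa1 with the largest SD and Afp as a classic yolk sac and fetal liver gene. They lie on the plus strand of GRCm38.p6 at chr9:46228380-46228629 and chr5:90490464-90490713. Capitals mark matches on either strand to GTTAAT (part of the site of the liver and endoderm factor HNF1), to AGGTCA and its variant AGTTCA (nuclear receptor motifs), and to TATAAA.
Apoa1: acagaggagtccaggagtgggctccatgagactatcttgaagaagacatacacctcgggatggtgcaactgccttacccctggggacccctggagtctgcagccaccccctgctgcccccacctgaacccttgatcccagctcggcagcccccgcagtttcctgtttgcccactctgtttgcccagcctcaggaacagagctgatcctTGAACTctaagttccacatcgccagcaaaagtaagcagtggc
Afp: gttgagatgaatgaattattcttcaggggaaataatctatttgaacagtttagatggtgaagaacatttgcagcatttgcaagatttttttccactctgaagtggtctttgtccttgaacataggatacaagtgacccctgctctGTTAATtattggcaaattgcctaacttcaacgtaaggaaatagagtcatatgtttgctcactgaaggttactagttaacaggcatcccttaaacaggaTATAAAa

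Apoa1 held 1 match to AGTTCA, 42 bases before its start, and Afp 1 match to GTTAAT and 1 to TATAAA. Among all 32851 windows the share with AGTTCA was 11.8%, with AGGTCA 14%, with GTTAAT 6.43% and with TATAAA 12.4%. The matches are described only.

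The second pattern comprised Cdx2, Evx1, Tbx6, Hoxd10 and Hoxc10, with SDs from 0.67 to 1.09. Cdx2 encodes a homeobox protein that drives the tail bud and the posterior Hox genes, Evx1 is a homeobox gene of the tail bud and spinal cord, and Tbx6 is required for presomitic mesoderm. Cdx2 read 8.85, 8.94, 6.99 and 8.49 in females 1 to 4, and 9.59, 8.56, 8.16 and 6.27 in males 1 to 4, a 9.98-fold range. Female 3 and male 4 were the low embryos for all 5 genes, with median deviations from the median embryo of -1.54 and -1.66.

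Tbx6 read 6.10 in female 3 and 6.21 in male 4, and between 7.54 and 8.38 in the other 6. Hoxd10 read 7.47 in female 3 and 7.29 in male 4, and between 8.16 and 9.34 in the other 6. Male 3 came next, with a median deviation of -0.44. All 3 of these embryos were on chip 2. Between the chips the 5 genes differed by -1.51 to -0.78 (chip 2 minus chip 1, unadjusted p between 0.0017 and 0.031), and none passed in limma (adjusted p between 0.16 and 0.32). Female 4, the other embryo on chip 2, read 8.49 for Cdx2, under every embryo on chip 1 (8.56 to 9.59). For Hoxd10 it read 9.34, the highest of the 8 embryos. Different embryos lay on each chip, so the chip and the embryos on it cannot be told apart. A second probe of Hoxc10 read 6.30 in female 3 and 6.07 in male 4, and between 7.61 and 8.56 in the other 6. A second probe of Tbx6 was under 7 on all 8 arrays.

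Over the Hox family male 4 lay lowest. Of 38 measured Hox genes 17 were above 7 on all 8 arrays and 20 on at least 4, the brightest being Hoxc6 (10.85 ± 0.32), Hoxa5 (10.10 ± 0.25), Hoxd4 (10.03 ± 0.24) and Hoxb5 (9.82 ± 0.15). None of the 9 measured Hox genes of paralogue groups 11 to 13 was above 7 on any array. Male 4 was the lowest embryo for 18 of the 20. Their median SD was 0.24, and 0.14 without male 4.

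The shift of male 4 was unequal along the clusters. Relative to the median embryo, its median was -0.25 over the 7 genes of paralogue groups 1 to 4, -0.63 over the 7 of groups 5 to 8, and -0.56 over the 6 of groups 9 and 10, within which Hoxd10 lay at -1.36 and Hoxc10 at -1.39. Female 3 lay at -0.02, -0.07 and -0.26 for the same sets, with Hoxd10 and Hoxc10 both at -1.18. Hoxa2, a hindbrain and arch gene, read 0.06 above the median embryo in male 4. Thus in female 3 the 2 genes of group 10 lay furthest from the median embryo, and in male 4 the 15 genes of groups 4 to 10 all lay between -1.39 and -0.37 from it.

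**Figure D4:**
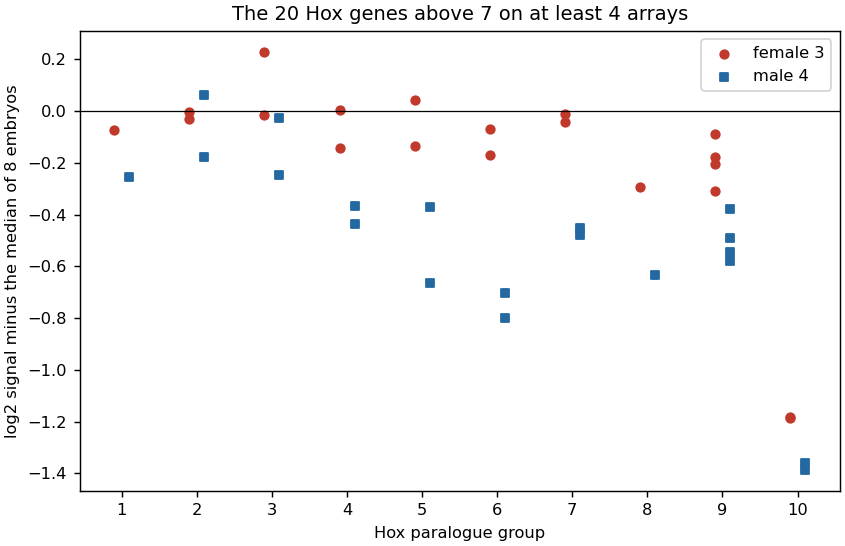
Deviation of female 3 (circles) and male 4 (squares) from the median of the 8 wildtype embryos for the 20 Hox genes above 7 on at least 4 arrays. The horizontal axis gives the paralogue group, the vertical axis the log2 difference; both embryos lie lowest at group 10, between -1.39 and -1.18.

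Genes of the remaining patterns had smaller ranges. Sst, which encodes the neuropeptide somatostatin, read 6.66 in male 1 and between 7.60 and 8.11 in the other 7. Nppb, a natriuretic peptide of heart muscle, read 7.31 in male 1, had a median of 8.27, and read 8.84 in female 2. Pf4, a platelet chemokine made by megakaryocytes, read 6.67 in male 1, had a median of 7.32, and read 8.14 in female 2.

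Several lists were shifted as a whole in single embryos. Male 4, the embryo low in Hox genes, was above the median embryo for all 17 cardiac genes and the highest embryo for 13, with a median shift of 0.24, and for mesenchyme and matrix genes it was highest in 6 of 13. Myl4 for instance read 13.03 in male 4 and between 12.60 and 12.80 in the other 7. Female 2 was the highest embryo for 11 of 13 red cell genes, by a median of 0.33, and Slc4a1 read 12.19 there, had a median of 11.73, and read 11.20 in female 1.

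Male 1 was the lowest embryo for 8 of 12 neuronal genes and under the median embryo for all 12, with a median deviation of -0.32. Nefm, a neurofilament subunit, read 7.25 in male 1 and between 7.83 and 8.25 in the other 7. The same embryo was highest for 6 of 9 presomitic and somitic genes and for 6 of 8 glycolysis genes. The Wnt list was not shifted as a whole. Male 1 was highest there for 12 of 30 genes, but below the median embryo for 10 and lowest for 3. Over all genes male 1 was lowest in 16.7% and highest in 14.6%. By comparison the cell cycle list moved little, its mean lying between 11.19 and 11.24 in all 8 embryos. What set these embryos apart, developmental stage included, was not tested.

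**Figure D5:**
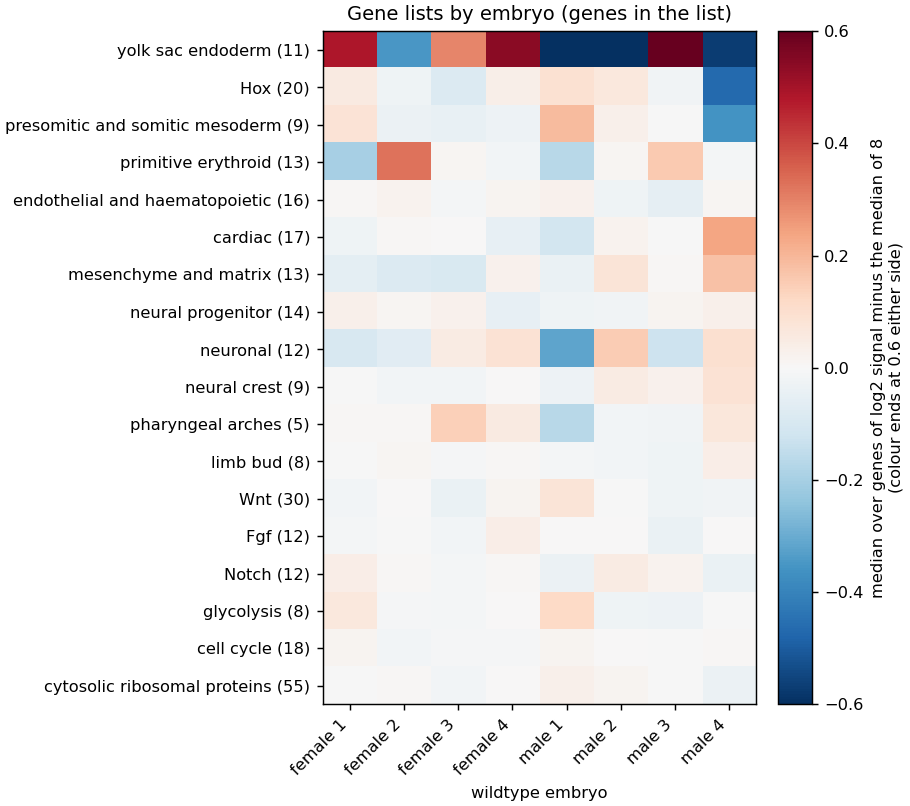
Median deviation of gene lists from the median of the 8 wildtype embryos, with the number of genes above 7 on at least 4 arrays after each name. Columns are embryos, females left of males, and colour is the log2 deviation, which saturates at 0.6; male 3 is high for yolk sac endoderm, male 4 low for Hox and high for cardiac genes, female 2 high for red cell genes and male 1 low for neuronal genes.

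In 9 genes the other 7 embryos lay close together and 1 embryo stood apart, by at least 0.5 from its nearest neighbour and by a gap that took up more of the whole range than Dixon's limit for 8 values. Genes with wide gaps among the other embryos too, such as Apoa1, were not counted. Of the 9 genes 2 were neighbours in the genome. Mre11a, which encodes a nuclease of DNA break repair, and Ankrd49 lie next to each other on chromosome 9 and are transcribed away from each other. Mre11a read 9.24 in female 4 and between 9.95 and 10.10 in the other 7. Ankrd49 read 9.18 in female 4 and between 9.85 and 10.15 in the other 7.

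All 3 probes of Mre11a showed the difference, by -0.77, -0.76 and -0.54 between female 4 and the mean of the others, beside an SD of at most 0.09 among the others. The nearest neighbours with signal above 7 did not show it. Fut4 read 8.43 in female 4 and between 8.32 and 8.44 in the other 7, and Panx1 read 9.39 there and between 9.31 and 9.62 in the other 7. These genes were singled out after their values had been seen. In the other 7 of these 9 genes the embryo that stood apart was male 1 (Sst, Nefm and the sensory neuron gene Pou4f1) or male 4 (Hoxb6, Hoxc6, Hoxa5 and Nkx2-3).

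The starts of Ankrd49 and Mre11a lie close together, so the 80 bases between them, at chr9:14784574-14784653 of GRCm38.p6, are shown on the plus strand, that of Mre11a. Capitals mark matches on either strand to CCAAT and to ACGTCA (part of a CREB-type site).
Ankrd49 to Mre11a: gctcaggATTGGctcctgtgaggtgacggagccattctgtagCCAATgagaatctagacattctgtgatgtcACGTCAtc

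The stretch held 2 matches to CCAAT, 1 on each strand, and 1 to ACGTCA. Of the 80 bases before each of the 32851 starts, 15.3% held CCAAT and 3.56% held ACGTCA. The sequence is that of the reference strain and not of these embryos.

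Between the sexes few genes differed beyond the spread between embryos. With limma and Benjamini-Hochberg adjustment over the 6802 genes, 5 passed an adjusted p of 0.05 (0.0735%), 4 higher and 1 lower in females, and all 5 were sex-linked. At an unadjusted p under 0.05 there were 218. Xist, the RNA that coats the inactive X, read 8.89, 8.97, 8.77 and 9.04 in the females and 6.18, 6.02, 6.22 and 6.35 in the males, a difference of 2.73 ± 0.08 (SE, adjusted p = 1.66e-10).

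Kdm5d, a Y-linked histone demethylase, read between 5.65 and 6.01 in females and between 7.15 and 7.67 in males (-1.50 ± 0.11, adjusted p = 9.06e-06). The other 3 genes are X-linked. Kdm6a, a histone demethylase that escapes X inactivation, averaged 10.67 ± 0.03 in females and 10.14 ± 0.11 in males (SD, n = 4 each), a difference of 0.53 ± 0.06 (adjusted p = 0.0031). Eif2s3x, a translation initiation factor subunit that also escapes, averaged 11.41 ± 0.12 in females and 10.87 ± 0.04 in males (0.54 ± 0.07, adjusted p = 0.0031). Pbdc1 averaged 11.88 ± 0.06 in females and 11.44 ± 0.04 in males (0.44 ± 0.06, adjusted p = 0.0043), and with the mean over its probes the difference was 0.30 (adjusted p = 0.060).

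The 231 X-linked genes as a whole had a median difference of 0.00 between females and males, and 50.2% of them were higher in females. None of the 6567 autosomal genes passed with limma, and 204 of them had an unadjusted p under 0.05. Within each chip, where 2 females stood against 2 males, 2 genes passed, and the differences of Kdm6a, Eif2s3x and Pbdc1 kept their direction and lay between 0.42 and 0.59.

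The arrays were also compared between the chips. With sex as a covariate, limma called 1 of the 6802 genes (0.0147%) between chip 2 and chip 1, and 926 had an unadjusted p under 0.05. Exosc2, a subunit of the RNA exosome, read 9.81, 10.21, 10.08 and 9.80 in the embryos on chip 2 and 11.09, 10.94, 10.91 and 10.69 in those on chip 1, a difference of -0.93 ± 0.09 (adjusted p = 0.0014). A second probe of Exosc2 did not follow it, reading between 8.09 and 8.38 on chip 2 and between 7.94 and 8.38 on chip 1. The count grew to 192, 64 of them higher on chip 2, when all 16 arrays were fitted, and to 37 with a trended and robust eBayes, while with the mean over the probes of a gene it was 0 (limma).

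The next 9 genes by p between the chips were Tpd52l1, Eno1b, Eif4e, Ndufb10, Obi1, Pom121, Kifbp, Cox11 and Atp5a1. Each was lower on chip 2, by 0.31 to 0.45, with adjusted p between 0.081 and 0.12 (limma). Of these, Ndufb10, Cox11 and Atp5a1 encode mitochondrial proteins, and the share of such genes among all genes tested was not counted.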

How the data were processed

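Normalized log2 signals were used as deposited, made by the authors with beadarray and limma per the study's methods. How background was corrected is not stated there. A second table of 32 columns names arrays only by running numbers and was not used. Of 25697 probes 23978 carried 1 gene symbol, 0 several and 1719 none, and 23962 matched the RefSeq annotation of GRCm38.p6.

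A gene took the probe with the highest mean over the 8 wildtype arrays, and SDs and tests used the 6802 genes above 7 on at least 4 arrays. Females were compared with males, and chip 2 with chip 1 with sex as a covariate, by limma 3.58.1 (R 4.3.3) with Benjamini-Hochberg adjustment at 0.05. The script was tested on simulated data. The number of arrays limits the precision, and p-values measure the spread between single embryos. Replicate numbers were not taken to pair the embryos.

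Named were the 20 brightest and 20 most variable autosomal genes, all genes differing between the sexes, the 10 leading genes between the chips, and in each list the brightest, the most variable and the defining members. The members and gene lists were chosen with earlier results of these data known. Alternatives were other thresholds, probe rules, filters and measures of spread, blocks, fits within chips and leaving out each embryo.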

Additional observations from a re-analysis of the deposited data

Results flagged for a closer look

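The brightest, the most variable, the sex and the chip genes, 54 in all, gave 157 groups of values (females, males, all 8 embryos), of which 13 held 1 embryo far from the others of its group, by a gap over the Dixon limit for the group's range. Chance would flag about 1 in 20 groups of independent genes not picked by their values. Here 20 of the genes were picked for their large SD in these same embryos, and the groups overlap. The number of flags was therefore not set against that rate.

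In the males, male 3 stood above the other males for 7 plasma protein and uptake genes. Apoa1 read 10.0093 in male 3 and between 6.4999 and 6.9486 in the others, Apoa2 9.9254 against 6.6539 to 7.2107, and Spp2 8.3561 against 5.9567 to 6.1945. Apom read 8.3845 in male 3 against 6.0859 to 6.4003, Pdzk1 8.0357 against 6.0795 to 6.2085, Afp 8.16 against 6.2188 to 6.4404, and Trf 8.2319 against 6.3652 to 6.6422. Spp2, Apom, Pdzk1, Afp and Trf were above 7 on exactly 4 arrays. They entered the ranking only through the embryos in which they were high, so the place of male 3 in them carries no weight.

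In the females, female 2 stood below the other females for Amn (6.5719 against 7.9741 to 8.2505) and Spink1 (8.1792 against 9.0169 to 9.1679). Female 3 stood below them for the posterior axis genes Evx1 (6.4207 against 8.0042 to 8.2139) and Tbx6 (6.1016 against 7.8989 to 8.0587). Amn was above 7 on exactly 4 arrays and entered the ranking only through the embryos in which it was high.

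Male 1 was far below the other 7 embryos for Sst (6.6576 against 7.6033 to 8.1076), and male 2 was below the other males for Mif (14.4612 against 14.6666 to 14.706).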

How the results depend on the processing

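The number of genes above 7 on all 8 arrays was 6381, and 7484 with a threshold of 6.5, 4721 with 8, 5880 with the mean over a gene's probes, and 6388 to 6415 with 1 embryo left out. Of the 20 most variable genes 6 were shared when genes had to be above 7 on all 8 arrays, which removes genes that were under 7 in some embryos, and 14 to 20 with 1 embryo left out. Of the 20 brightest, 15 were shared with the mean over probes and 19 to 20 with 1 embryo left out. The 5 genes differing between the sexes became 2 within chip 1 and 2 within chip 2, where fewer arrays were fitted, 5 with the replicate block, 4 with the mean over probes (without Pbdc1), and 5 to 6 with 1 embryo left out. Same-numbered embryos of the 2 sexes correlated at 0.135, 0.185, 0.126 and 0.054 in their deviations, and differently numbered ones at -0.382 to 0.358. The numbers were therefore not taken as pairs. The 1 gene differing between the chips became 192 with all 16 arrays, 37 with a trended and robust eBayes, and 0 with the mean over probes. With 1 embryo left out it lay between 1 and 17, with 17 without female 1, 10 without female 4 and 3 without male 3, and the cause was not tested. Of 92 tested differences of single genes under the alternatives 84 kept their direction and call, 8 lost their call and 0 reversed. Of 176 SDs of single genes 172 moved by at most 1.5 times and 4 by more (Tbx6, Exosc2 under 2 settings, and Sst without male 1). For Amn, Spp2, Apom, Pdzk1, Afp and Trf no SD was counted without female 1, 3 or 4 or male 3. With any of these embryos left out, those genes were no longer above 7 on at least 4 arrays. Differences near the array maximum and under 7 are compressed.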
